A study of Homo sapiens with 6 samples.

Results

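Interferon-stimulated genes are the genes that a cell switches on when an interferon reaches it, and 47 of them are described here in the human hepatocellular carcinoma line HCCLM3. They were taken as a list of gene symbols commonly counted in this class, chosen with earlier results of these data known, and all 47 had a row among the 20263 gene rows of the count table. CC-885 libraries came from cells kept for 24 h with CC-885, a small molecule that binds cereblon, a ubiquitin ligase subunit that picks the ligase's substrates, and so brings about the breakdown of proteins such as GSPT1, a factor of translation termination. DMSO libraries came from cells that received the solvent, listed with the same 24 h, the labels giving DMSO as their treatment. Each group held 3 RNA-seq libraries of the same line, grown in serum-containing medium. The sources used here do not give the dose of CC-885, and nothing in the labels ties the libraries to separate cultures, so p-values measure the spread between libraries, which may be technical.

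Type I and type III interferons bind receptors whose kinases, JAK1 and TYK2, phosphorylate STAT factors. A complex that holds STAT2 and IRF9 then binds the interferon-stimulated response element (ISRE) in the promoters of antiviral genes. Type II interferon acts through a STAT complex that binds a different element, the gamma-activated site (GAS), and IRF1, itself induced in this way, binds ISRE-like letters directly. Cells of the liver use the encoded proteins against hepatitis viruses, and many of the genes are also transcribed at a low level with no interferon added.

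Promoter letters are shown first. Windows with and without ISRE letters occurred alike among genes that fell, genes that rose and genes not called with CC-885. The windows are RefSeq's, on GRCh38.p14, from 250 bases before to 50 bases after a gene's start, and 38 of the 47 genes had at least 1. IFIT1 and ISG15 stand for the genes that fell and hold ISRE letters, and IRF1 for the gene that rose most. OAS1 stands for a gene that fell with no match to the ISRE pattern given below. Its window does hold gaaacgaaa, GAAA repeats 1 base apart, a spacing that this pattern leaves out. Each window is written 5′ to 3′ on the gene's own strand, with letters matching the ISRE (GAAANNGAAA, either strand) or the GAS (TTCNNNGAA, the same on both strands) in capitals.
IFIT1, chr10:89392373-89392672, plus strand: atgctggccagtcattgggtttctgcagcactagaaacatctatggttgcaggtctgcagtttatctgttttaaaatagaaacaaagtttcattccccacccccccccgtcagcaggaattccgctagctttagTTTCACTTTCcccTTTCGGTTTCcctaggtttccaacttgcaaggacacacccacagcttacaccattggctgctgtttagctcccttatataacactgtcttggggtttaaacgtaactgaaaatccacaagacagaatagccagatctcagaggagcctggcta
ISG15, chr1:1013247-1013546, plus strand: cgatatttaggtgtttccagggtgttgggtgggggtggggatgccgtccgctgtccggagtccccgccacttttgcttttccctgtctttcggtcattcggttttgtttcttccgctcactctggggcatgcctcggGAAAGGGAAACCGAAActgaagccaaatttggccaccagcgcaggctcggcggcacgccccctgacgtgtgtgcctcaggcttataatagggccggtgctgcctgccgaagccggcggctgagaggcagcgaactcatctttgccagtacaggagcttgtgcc
IRF1, chr5:132490724-132491023, minus strand: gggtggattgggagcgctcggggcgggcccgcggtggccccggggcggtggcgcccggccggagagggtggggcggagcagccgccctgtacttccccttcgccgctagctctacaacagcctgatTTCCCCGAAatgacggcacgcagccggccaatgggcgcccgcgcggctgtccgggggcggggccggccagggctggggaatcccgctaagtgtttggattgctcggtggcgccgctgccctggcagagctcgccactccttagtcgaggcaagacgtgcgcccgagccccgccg
OAS1, chr12:112906712-112907011, plus strand: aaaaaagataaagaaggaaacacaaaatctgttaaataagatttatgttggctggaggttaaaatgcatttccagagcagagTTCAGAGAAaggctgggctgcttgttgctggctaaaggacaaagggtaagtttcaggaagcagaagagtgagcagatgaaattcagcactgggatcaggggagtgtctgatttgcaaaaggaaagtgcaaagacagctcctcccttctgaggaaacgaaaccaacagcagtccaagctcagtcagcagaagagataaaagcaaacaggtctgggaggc

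The 30-base stretches that follow show 1 ISRE match each in capitals, with 10 bases on either side, on the strand that reads GAAANNGAAA. In the BST2 stretch another match overlaps the one in capitals and begins in the lower-case bases before it. They cover genes that rose (EPSTI1, RSAD2), genes that fell (IFIT3 to DDX60) and genes whose change did not pass the test (DDX60L to PARP14). PARP9 and DTX3L lie head to head, and the stretch printed for PARP9 is the match of both genes.
EPSTI1, chr13:42992272-42992301, minus strand: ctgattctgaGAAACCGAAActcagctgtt
RSAD2, chr2:6877622-6877651, minus strand: ttccacatgtGAAACTGAAAgttgaaacag
IFIT3, chr10:89332468-89332497, minus strand: aaggggaaagGAAAGTGAAActgatggaac
IFI6, chr1:27672266-27672295, minus strand: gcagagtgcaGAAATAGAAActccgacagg
IFI27, chr14:94110631-94110660, plus strand: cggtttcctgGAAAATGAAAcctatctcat
IFITM1, chr11:314024-314053, plus strand: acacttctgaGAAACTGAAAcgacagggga
IFITM3, chr11:320876-320905, minus strand: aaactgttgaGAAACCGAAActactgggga
BST2, chr19:17405735-17405764, minus strand: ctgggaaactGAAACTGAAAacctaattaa
PARP9, chr3:122564322-122564351, plus strand: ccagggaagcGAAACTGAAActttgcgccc
DDX60, chr4:168318786-168318815, minus strand: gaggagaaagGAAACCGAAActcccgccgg
DDX60L, chr4:168480523-168480552, minus strand: gtggagaaaaGAAACCGAAActaactccct
IFIT5, chr10:89414554-89414583, minus strand: cgagcgctcaGAAACTGAAActtaagaaat
OAS3, chr12:112938452-112938481, plus strand: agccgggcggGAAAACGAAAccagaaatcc
PARP14, chr3:122680800-122680829, plus strand: tccaggaaacGAAAGCGAAAgagtcaaagt

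ISRE letters stood in the window of 25 of the 38 genes with a window (65.8%), against 3.57% of all 35116 windows and 3.87% of the 10698 tested genes with a window. They were present in 12 of the 16 genes that fell, in 2 of the 3 that rose and in 10 of the 16 whose change was not called. The genes that fell without a match to this pattern in their window were ADAR, IFI35, OAS1 and STAT2. Other spacings of the GAAA repeats, such as that in the printed OAS1 window, were not searched. GAS letters were in 12 of the 38 (31.6%), against 7.66% of all windows and 8.57% of the tested genes with a window. They stood in 6 of the 16 that fell, in 2 of the 3 that rose and in 4 of the 16 not called. Of the 13 GAS matches at distinct positions, 5 share bases with an ISRE match. Letters of a narrow form of the NF-kB site (GGGAANNNCC, either strand) were in 2 of the 38 (5.26%), BST2 and OAS3. That form was in 6.9% of all windows and 10.3% of the tested genes with a window. Other forms of the site were not searched, and ggggaatccc in the printed IRF1 window lies outside this pattern. A match describes letters and not binding, and a missing match says only that the letters are not in the window. GBP2, IFIT2, IFITM2, IRF2, IRF7, MX2, OAS2, OASL and TRIM22 had no window in the table. The motifs and the printed windows were chosen with the changes known.

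**Figure D1:**
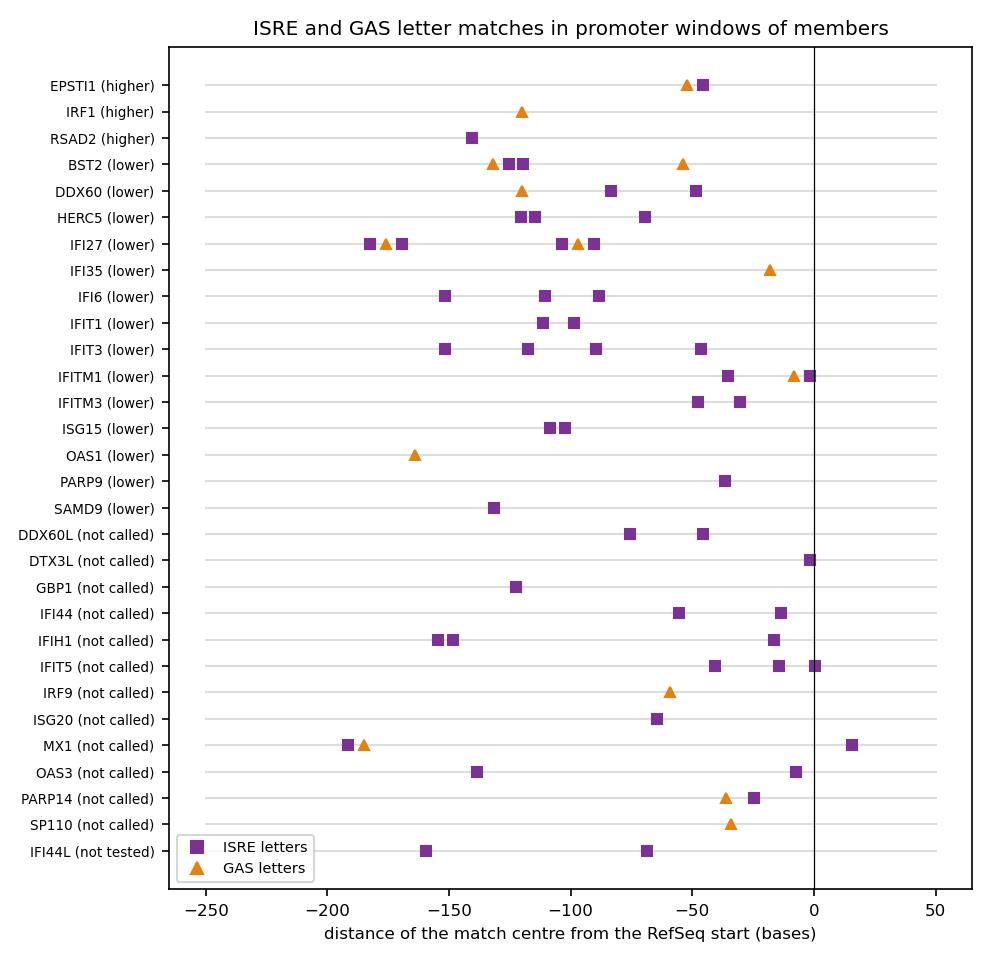
Position of ISRE and GAS letter matches in the promoter windows of interferon-stimulated genes that hold at least 1, with the distance of the match centre from the RefSeq start in bases on the horizontal axis and 1 line per gene. Squares are ISRE matches and triangles GAS matches, and the call with CC-885 stands after each name. A gene with several RefSeq starts has its matches drawn from each start, so that the 1 GAS match of IFI27 appears at 97 and at 176 bases before a start. The GAS match of IRF1 is centred 120 bases before its start, and that of OAS1 164 bases before.

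The libraries were of similar depth, with 30432509 to 39809131 counts with CC-885 and 32952518 to 37574380 with DMSO. With 3 counts as the limit of what a 0 can hide, a gene at 0 could reach 0.0754 to 0.0986 CPM (counts scaled to the library total), counting error only. Levels below are CPM scaled by TMM factors, which correct for differences in composition between libraries. Mitochondrial genes took 4.83% to 6.16% of the counts with CC-885 and 4.29% to 8.17% with DMSO. Of 11 hepatocyte and liver cancer markers, 5 (ALB, AFP, APOB, TTR and GPC3) had no count in any library, so the hepatocyte character implied by the labelled cell type was not seen in these counts. HNF4A, a liver transcription factor, had 5, 16 and 2 counts with CC-885, against 53, 49 and 34 with DMSO. The keratin genes KRT8 and KRT18 made up nearly all of that list's sum, which was 1361 to 1655 CPM with CC-885 and 1806 to 2210 CPM with DMSO. Among 9 immune cell markers PTPRC, CD3E and LYZ were at 0 throughout, and the list summed to 4.91 to 7.06 CPM with CC-885 and 6.67 to 6.99 CPM with DMSO. The 6 fibroblast markers, LUM at 0, summed to 152 to 186 CPM with CC-885 and 158 to 189 CPM with DMSO. Within that near-equal sum PDGFRB fell to 14.3, 14.2 and 13.6 CPM with CC-885, against 76.5, 58.6 and 77.6 CPM with DMSO (log2 fold change -2.33, adjusted p = 8.63e-07). DCN fell as well (-3.23, adjusted p = 8.21e-05), while COL1A1 was higher (0.58, adjusted p = 0.00327). The 4 endothelial markers, KDR at 0, summed to 3.11 to 4.93 CPM with CC-885 and 0.871 to 1.35 CPM with DMSO, with CDH5 (3.63, adjusted p = 9.9e-06) and VWF (1.01, adjusted p = 0.0232) higher. The part of these markers in the results was not tested, and those named by their change were picked after their values were seen.

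Where interferon-stimulated genes changed with CC-885 they were mostly lower, with IRF1, EPSTI1 and RSAD2 as the exceptions. Of the 43 genes with enough counts to test, 22 fell (51.2%), 3 rose (6.98%) and 18 were not called. Among all 13444 tested genes 26.8% fell and 25.8% rose at the same threshold, a Benjamini-Hochberg adjusted p below 0.05 in edgeR's quasi-likelihood test. A fall of at least 2-fold was called for 9 of the 43, against 10.3% of all tested genes, and the 3 rises were each over 2-fold, which 8.23% of all tested genes were. The median log2 fold change of the 43 was -0.59, while that of all tested genes was -0.04. In 22 of the 43 every CC-885 library lay below every DMSO library, and in 4 every CC-885 library lay above. The same separation was seen in 31.2% of all tested genes downward and 29.9% upward. In bulk RNA, a change in the share of cells that transcribe a gene and a change in RNA per cell cannot be told apart.

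The summed level of the 47 genes was 1289, 1240 and 1210 CPM with CC-885, against 1834, 1672 and 1909 CPM with DMSO. Every CC-885 library was below every DMSO library. ADAR, BST2, IFITM3 and OAS3 held 63.7%, 63.2% and 62.1% of this sum with CC-885, against 67.9%, 63.2% and 67.8% with DMSO. Without these 4 the sum was 468, 456 and 458 CPM with CC-885, against 589, 615 and 615 CPM with DMSO, so the lower sum was not carried by the most abundant genes alone.

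**Figure D2:**
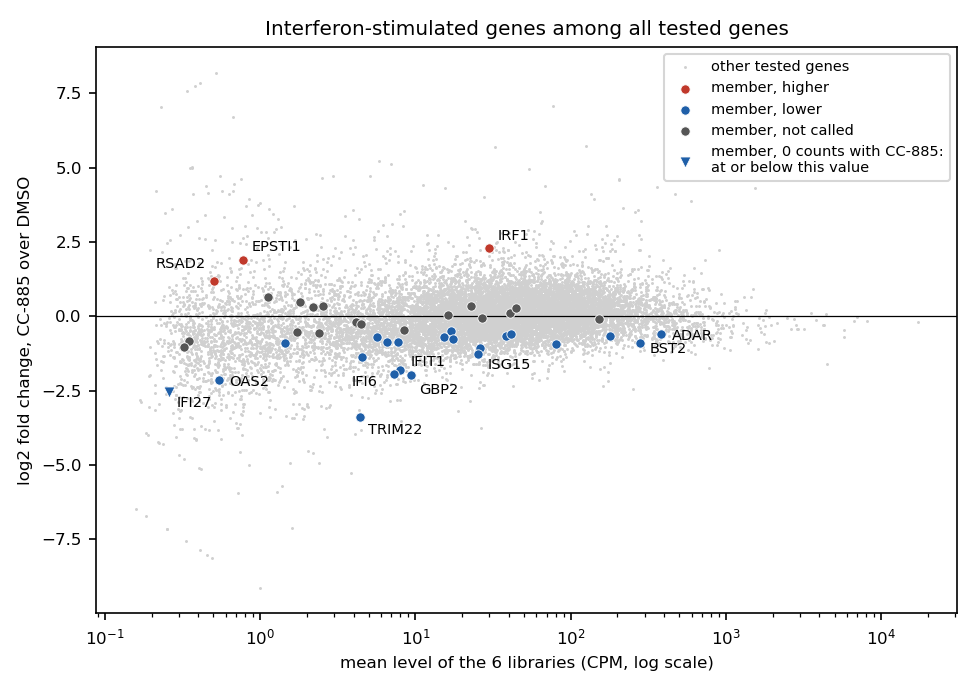
Log2 fold change of CC-885 over DMSO (vertical axis) against the mean level of the 6 libraries in CPM (horizontal axis, log scale) for all 13444 tested genes in grey, with interferon-stimulated genes coloured by call. The 22 genes that fell spread over the whole range of levels, IFI27 is drawn at its bound because it had no count with CC-885, and IRF1 stands highest of the 3 that rose.

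Within the sensors and transcription factors of the response, IRF1 rose, STAT2 fell and 5 of 7 were not called. Among all tested genes 25.8% rose and 26.8% fell. IRF1, a transcription factor that drives antiviral and antiproliferative genes, had 50.8, 53.5 and 44.2 CPM with CC-885, against 9.60, 9.07 and 11.8 CPM with DMSO. Every CC-885 library was far above every DMSO library, a 4.88-fold difference (log2 fold change 2.29, SE 0.15, adjusted p = 1.26e-06). Its exons overlap C5orf56 and AC116366.3 on the opposite strand, and the strand setting of the counting is not stated, so reads of these genes may be mixed. STAT2, which joins IRF9 in the interferon complex, had 31.8, 27.9 and 29 CPM with CC-885, against 54.9, 40.3 and 46.1 CPM with DMSO. The groups did not overlap, with a log2 fold change of -0.67 (SE 0.14, adjusted p = 0.00237).

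IRF7, which amplifies interferon production, had 26.6, 28.4 and 21.8 CPM with CC-885, against 22.1, 20.1 and 18.1 CPM with DMSO. The lowest CC-885 library lay just under the highest DMSO library (log2 fold change 0.35, SE 0.15, adjusted p = 0.0686). With replicate 3 of CC-885 left out, IRF7 passed (0.46, adjusted p = 0.037). IRF2, a competitor of IRF1 for the same sites, had a log2 fold change of -0.46 (adjusted p = 0.0743), which also passed without that library (-0.61, adjusted p = 0.0492). Counts of IRF1 were 6.8, 10.0 and 5.18 times those of IRF2 with CC-885, against 0.981, 1.11 and 1.04 times with DMSO. IRF9, the DNA-binding subunit of the interferon complex, had 4.06, 1.12 and 1.19 CPM with CC-885, against 1.46, 1.36 and 1.69 CPM with DMSO. Only CC-885 replicate 1 was high, and without it the log2 fold change was -0.37 (adjusted p = 0.344) instead of 0.48 (adjusted p = 0.434). The exons of IRF9 overlap AL136295.5 on the same strand, so reads of that gene may be mixed in. The RNA sensors IFIH1 (-0.22, adjusted p = 0.341) and RIGI (0.30, adjusted p = 0.377) were not called.

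Proteins of the IFIT family bind foreign RNA at its end and block its translation. Of the 4 genes 3 fell, against 26.8% of all tested genes. IFIT1 had 3.43, 3.22 and 3.95 CPM with CC-885, against 10.6, 14.7 and 11.8 CPM with DMSO. All CC-885 libraries were below all DMSO libraries, by 3.5-fold on average (log2 fold change -1.81, SE 0.18, adjusted p = 1.51e-05). IFIT3, which stabilises IFIT1, had 3.80, 4.99 and 5.23 CPM with CC-885, against 8.06, 8.47 and 8.90 CPM with DMSO. These groups did not overlap either (-0.86, SE 0.17, adjusted p = 0.00169). IFIT2 had 13.1, 14.0 and 15.3 CPM with CC-885, against 17.5, 22.9 and 19.6 CPM with DMSO, again with no overlap (-0.50, SE 0.15, adjusted p = 0.0157). IFIT2 was not called when replicate 1 (adjusted p = 0.0642) or replicate 2 (adjusted p = 0.0538) of CC-885 was left out, and its exons overlap AL353751.1 on the same strand and LIPA on the opposite strand. IFIT5, a family member that binds a broad range of RNA ends, had 24.3, 26.3 and 28 CPM with CC-885, against 24.6, 32.7 and 24.8 CPM with DMSO. The groups overlapped (-0.06, SE 0.15, adjusted p = 0.74), and without DMSO replicate 2 the value was 0.10. Within libraries, IFIT1 had 0.141, 0.123 and 0.141 counts per count of IFIT5 with CC-885, against 0.434, 0.448 and 0.476 with DMSO. As for other families here, similar sequences may have split reads between members.

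The OAS family makes oligoadenylate on sensing viral RNA. Of its 4 members 3 fell, against 26.8% of all tested genes, while OAS3, the most abundant, was not called. OAS1 had 17.9, 16.6 and 15.8 CPM with CC-885, against 34.0, 35.1 and 37.2 CPM with DMSO. The libraries of each group lay close together and apart from the other group, with CC-885 lower by 2.11-fold (log2 fold change -1.08, SE 0.13, adjusted p = 5.48e-05). OASL, which binds RIGI in place of making oligoadenylate, had 5.63, 6.6 and 4.33 CPM with CC-885, against 9.79, 10.9 and 9.45 CPM with DMSO (-0.86, SE 0.18, adjusted p = 0.00217). OAS2 was scarce, with 10, 6 and 4 counts with CC-885, against 26, 28 and 39 counts with DMSO. That is 0.333, 0.156 and 0.116 CPM with CC-885, against 0.679, 0.762 and 1.2 CPM with DMSO, with no overlap (-2.13, SE 0.47, adjusted p = 0.00279). OAS3 had 155, 149 and 140.1 CPM with CC-885, against 165, 115 and 192 CPM with DMSO. The DMSO libraries lay on both sides of the CC-885 ones (-0.08, SE 0.17, adjusted p = 0.704), and without DMSO replicate 3 the value was 0.082. The ratio of OAS1 to OAS3 counts within a library was 0.116, 0.111 and 0.113 with CC-885, against 0.206, 0.307 and 0.194 with DMSO. OAS1 overlaps AC004551.1 on the opposite strand. The window of OAS3 holds a match to the ISRE pattern searched. That of OAS1 holds only a GAS match, as its GAAA repeats stand closer together than the ISRE pattern allows.

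Among the antiviral GTPases GBP2 fell, and neither GBP1 nor MX1 passed the test. GBP2, a guanylate-binding protein that coats intracellular pathogens, had 3.96, 3.69 and 3.75 CPM with CC-885, against 15.5, 15.4 and 13.8 CPM with DMSO. Spread within either group was small beside the 3.91-fold difference (log2 fold change -1.97, SE 0.15, adjusted p = 2.84e-06). Its exons overlap GBP7 on the same strand. GBP1, its close relative and a common marker of type II interferon, had 1.27, 1.09 and 1.71 CPM with CC-885, against 0.522, 0.790 and 1.32 CPM with DMSO. These libraries overlapped (0.64, SE 0.37, adjusted p = 0.162), though the value was 1.04 (adjusted p = 0.0317) without DMSO replicate 3. MX1, which traps viral nucleocapsids, had 12, 4 and 9 counts with CC-885, against 23, 13 and 12 with DMSO (-0.83, adjusted p = 0.201). MX2 was too scarce to test, with 0, 2 and 0 counts with CC-885, against 0, 9 and 2 with DMSO.

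ISG15 and the enzymes around it gave 3 lower genes of 6, against 26.8% of all tested genes, and the other 3 were not called. ISG15, a ubiquitin-like protein attached to other proteins, had 16.0, 16.2 and 11.9 CPM with CC-885, against 35.0, 41.2 and 30.4 CPM with DMSO. It was lower in every CC-885 library, by 2.42-fold (log2 fold change -1.28, SE 0.17, adjusted p = 0.000106). Its exons overlap AL645608.3 on the opposite strand. HERC5, the ligase that attaches ISG15, had 10.8, 12 and 12.1 CPM with CC-885, against 17.7, 21.2 and 17.3 CPM with DMSO (-0.68, SE 0.15, adjusted p = 0.00249). HERC6, its relative, had 9, 0 and 12 counts with CC-885, against 22, 16 and 9 with DMSO (-1.04, adjusted p = 0.267). PARP9 and DTX3L form a complex that joins ADP-ribosylation to ubiquitin, and their genes share a start region and the ISRE match printed above. PARP9 had 13.3, 12.6 and 12.9 CPM with CC-885, against 19.3, 21.8 and 24.9 CPM with DMSO, with no overlap (-0.77, SE 0.14, adjusted p = 0.00109). DTX3L had 44.6, 40.5 and 42.3 CPM with CC-885, against 40, 34.2 and 43.0 CPM with DMSO, and these groups overlapped (0.12, SE 0.13, adjusted p = 0.456), with -0.063 after correcting for GC content and length. Per count of DTX3L there were 0.297, 0.310 and 0.305 counts of PARP9 with CC-885, against 0.483, 0.638 and 0.580 with DMSO. The exons of the pair overlap on opposite strands, which could mix their reads. PARP14, another ADP-ribosyltransferase, had 47.3, 44.4 and 54.8 CPM with CC-885, against 38.0, 41.9 and 41.1 CPM with DMSO. Its CC-885 libraries were all above its DMSO libraries, yet the change was not called (0.28, SE 0.13, adjusted p = 0.0903).

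All 5 genes for membrane and entry restriction were called, 4 lower and RSAD2 higher, against 26.8% lower and 25.8% higher among all tested genes. These 5 include the most abundant interferon-stimulated transcripts per length in these cells. BST2 (tetherin), which holds budding virus at the cell surface, had 198, 209 and 176 CPM with CC-885, against 372, 413 and 299 CPM with DMSO. No overlap was seen (log2 fold change -0.90, SE 0.15, adjusted p = 0.000582). IFITM proteins stop virus from fusing with the endosome. IFITM1 had 2.80, 2.52 and 2.30 CPM with CC-885, against 6.86, 7 and 5.86 CPM with DMSO (-1.37, SE 0.18, adjusted p = 0.000106). IFITM2 had 57.2, 53.2 and 57.5 CPM with CC-885, against 101, 93.4 and 124 CPM with DMSO (-0.92, SE 0.14, adjusted p = 0.000222). IFITM3 had 146, 137 and 132 CPM with CC-885, against 220.1, 184 and 257 CPM with DMSO (-0.67, SE 0.15, adjusted p = 0.00272). Every CC-885 library was below every DMSO library for all 3, but IFITM3 was not called after a correction for GC content and length (-0.33, adjusted p = 0.144). IFITM1 and IFITM2 overlap on the same strand and IFITM3 overlaps AC136475.5 on the opposite strand.

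RSAD2 (viperin), a radical-SAM enzyme that makes a chain-ending nucleotide, had 19, 30 and 24 counts with CC-885, against 12, 15 and 6 with DMSO. Its level was 0.633, 0.780 and 0.697 CPM with CC-885, against 0.313, 0.408 and 0.184 CPM with DMSO, low in both groups and with no overlap (1.2, SE 0.40, adjusted p = 0.0243). RSAD2 was not called when replicate 2 (adjusted p = 0.0868) or 3 (adjusted p = 0.0592) of CC-885 was left out, nor when replicate 1 (adjusted p = 0.0729) or 3 (adjusted p = 0.0998) of DMSO was, nor in DESeq2's Wald test (adjusted p = 0.0749). RSAD2 overlaps CMPK2, its neighbour and the source of its substrate, on the opposite strand. CMPK2 had 2, 0 and 2 counts with CC-885, against 2, 6 and 4 with DMSO, and was not tested.

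Of the 4 tested genes with IFI names, 3 fell, against 26.8% of all tested genes, and IFI44 was not called. IFI6, a membrane protein that limits flaviviruses, had 3, 3.22 and 2.85 CPM with CC-885, against 10.2, 16.1 and 8.19 CPM with DMSO. The CC-885 libraries agreed closely and lay 3.80-fold below DMSO, whose libraries were spread more widely (log2 fold change -1.93, SE 0.24, adjusted p = 8.24e-05). IFI27, a gene strongly induced in blood cells during viral infection, had 0 counts in each CC-885 library, against 14, 23 and 18 counts with DMSO. Against a floor of 3 counts per CC-885 library it was at least 5.83-fold lower with CC-885 (adjusted p = 0.000379). IFI35, a partner of the STAT-binding protein NMI, had 35.7, 34.4 and 29.1 CPM with CC-885, against 48.7, 54.7 and 45.1 CPM with DMSO, with no overlap (-0.58, SE 0.14, adjusted p = 0.00382). IFI44 had 0.533, 1.64 and 2.03 CPM with CC-885, against 1.98, 2.02 and 2.12 CPM with DMSO (-0.53, adjusted p = 0.275). IFI44L, its relative and neighbour, had no count in any library.

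Among enzymes of nucleic acids and nucleotides, with the SAMD9 pair, 3 of 6 tested genes fell, against 26.8% of all tested genes. ADAR edits adenosine to inosine in paired RNA and had the highest mean CPM of the 47, with 323, 289 and 303 CPM with CC-885, against 488, 346 and 546 CPM with DMSO. In DMSO replicate 2 BST2 was above it, at 413 CPM. The ADAR groups did not overlap (log2 fold change -0.59, SE 0.17, adjusted p = 0.0134), and ADAR was not called when replicate 2 (adjusted p = 0.0577) or 3 (adjusted p = 0.0538) of CC-885 was left out. DDX60, a helicase linked to RNA sensing, had 0.999, 0.884 and 1.16 CPM with CC-885, against 2.01, 2.02 and 1.66 CPM with DMSO (-0.90, SE 0.26, adjusted p = 0.0125). That call ended when replicate 2 of CC-885 (adjusted p = 0.0578) or replicate 1 of DMSO (adjusted p = 0.052) was left out. DDX60L, its neighbour and close copy, was not called (-0.17, adjusted p = 0.445). There were 0.252, 0.239 and 0.282 counts of DDX60 per count of DDX60L with CC-885, against 0.440, 0.411 and 0.435 with DMSO. SAMD9, which restricts poxviruses, had 3.76, 3.77 and 5.43 CPM with CC-885, against 5.95, 8.71 and 6.29 CPM with DMSO, with no overlap (-0.69, SE 0.22, adjusted p = 0.0182). Leaving out replicate 1 (adjusted p = 0.0662) or 2 (adjusted p = 0.0701) of CC-885, or replicate 2 of DMSO (adjusted p = 0.0856), ended the call of SAMD9. SAMD9L, its paralog, had 0.733, 2.21 and 2.79 CPM with CC-885, against 2.64, 3.40 and 2.55 CPM with DMSO (-0.57, adjusted p = 0.259). The exonuclease gene ISG20 was not called (0.34, adjusted p = 0.237).

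The remaining genes held the largest fall among those of the 47 with counts in both groups. TRIM22, a ubiquitin ligase of the TRIM family that inhibits HIV and hepatitis B virus transcription, had 1.13, 0.624 and 0.552 CPM with CC-885, against 6.76, 9.53 and 7.61 CPM with DMSO. It was 10.4-fold lower with CC-885, with no overlap (log2 fold change -3.38, SE 0.28, adjusted p = 4.43e-06), and its exons overlap OR56B1 on the same strand. TRIM5, a neighbouring relative outside the 47, had 10.1, 20.3 and 11.0 CPM with CC-885, against 22.9, 20.8 and 22.6 CPM with DMSO. It was called lower as well (-0.68, adjusted p = 0.0422), so the ratio below is not to an unchanged gene. Per count of TRIM5 there were 0.113, 0.0308 and 0.0501 counts of TRIM22 with CC-885, against 0.295, 0.458 and 0.337 with DMSO. The pairs for these ratios were chosen after their values were seen, so they have no test. EPSTI1, an interferon-induced protein first described in epithelial and stromal cells, had 33, 55 and 40 counts with CC-885, against 8, 18 and 9 with DMSO. In CPM that is 1.10, 1.43 and 1.16 with CC-885, against 0.209, 0.490 and 0.276 with DMSO, a 3.76-fold difference with no overlap (1.91, SE 0.38, adjusted p = 0.00151). SP100 and SP110 are proteins of nuclear bodies. SP100 had 16.0, 16.8 and 17.0 CPM with CC-885, against 14.0, 16.7 and 17.2 CPM with DMSO, with a log2 fold change of 0.05 (adjusted p = 0.772) that changed sign under 4 of the alternatives run. SP110 had 3.73, 4 and 4.47 CPM with CC-885, against 4.98, 3.98 and 5.58 CPM with DMSO (-0.25, adjusted p = 0.29). XAF1, a binding partner of the apoptosis inhibitor XIAP, had 0 counts in each CC-885 library, against 0, 6 and 2 with DMSO, and was not tested.

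**Figure D3:**
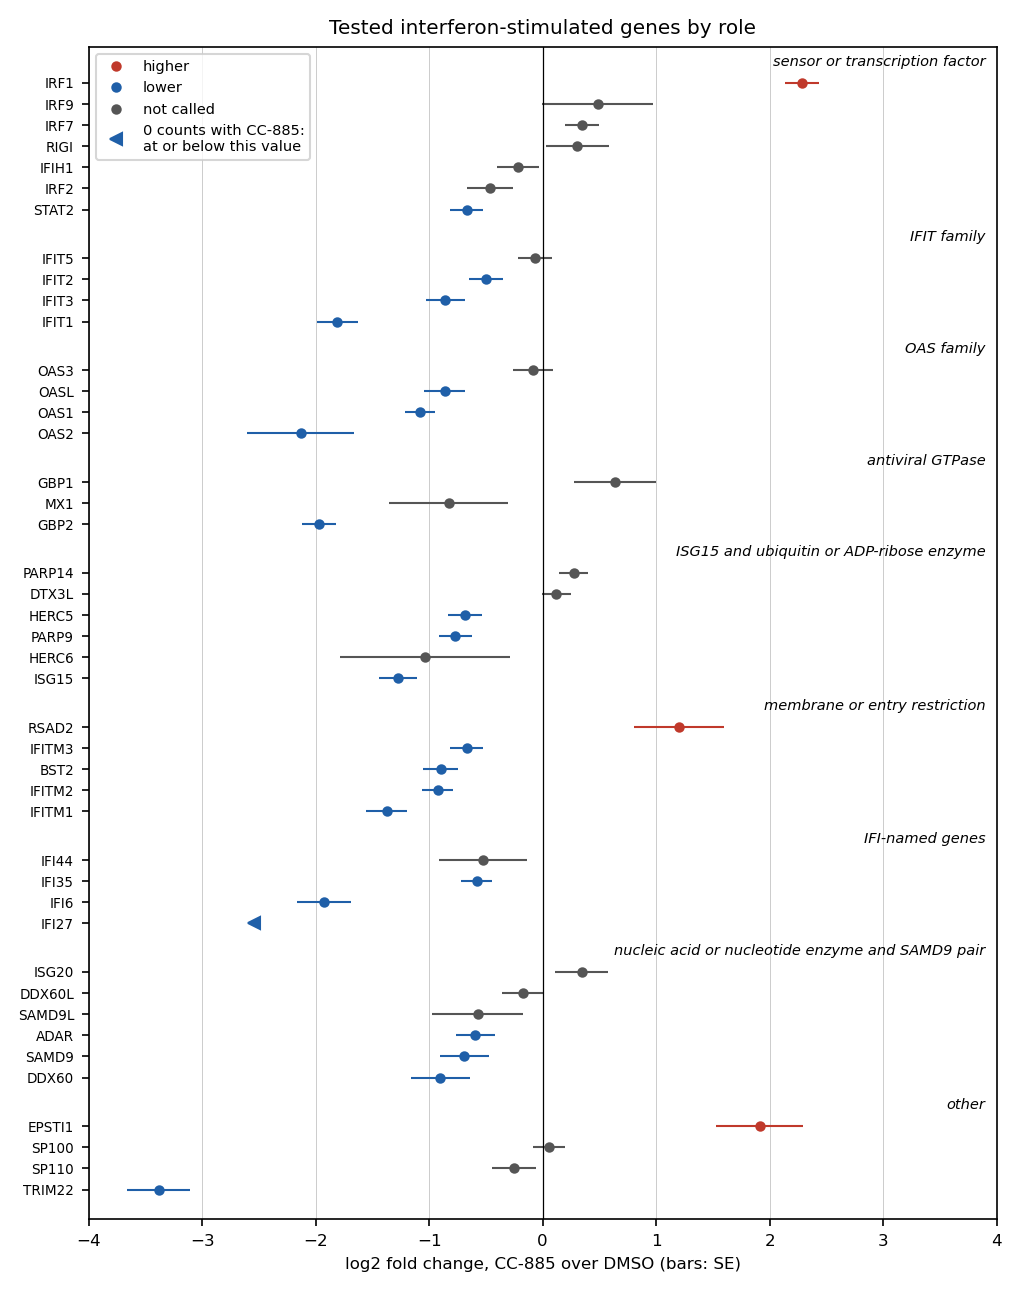
Log2 fold change of CC-885 over DMSO for the 43 tested interferon-stimulated genes, grouped by role, with bars giving the SE. The 22 genes that fell are blue, the 3 that rose red and the rest grey, and the triangle marks the bound of IFI27, which had 0 counts with CC-885.

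**Figure D4:**
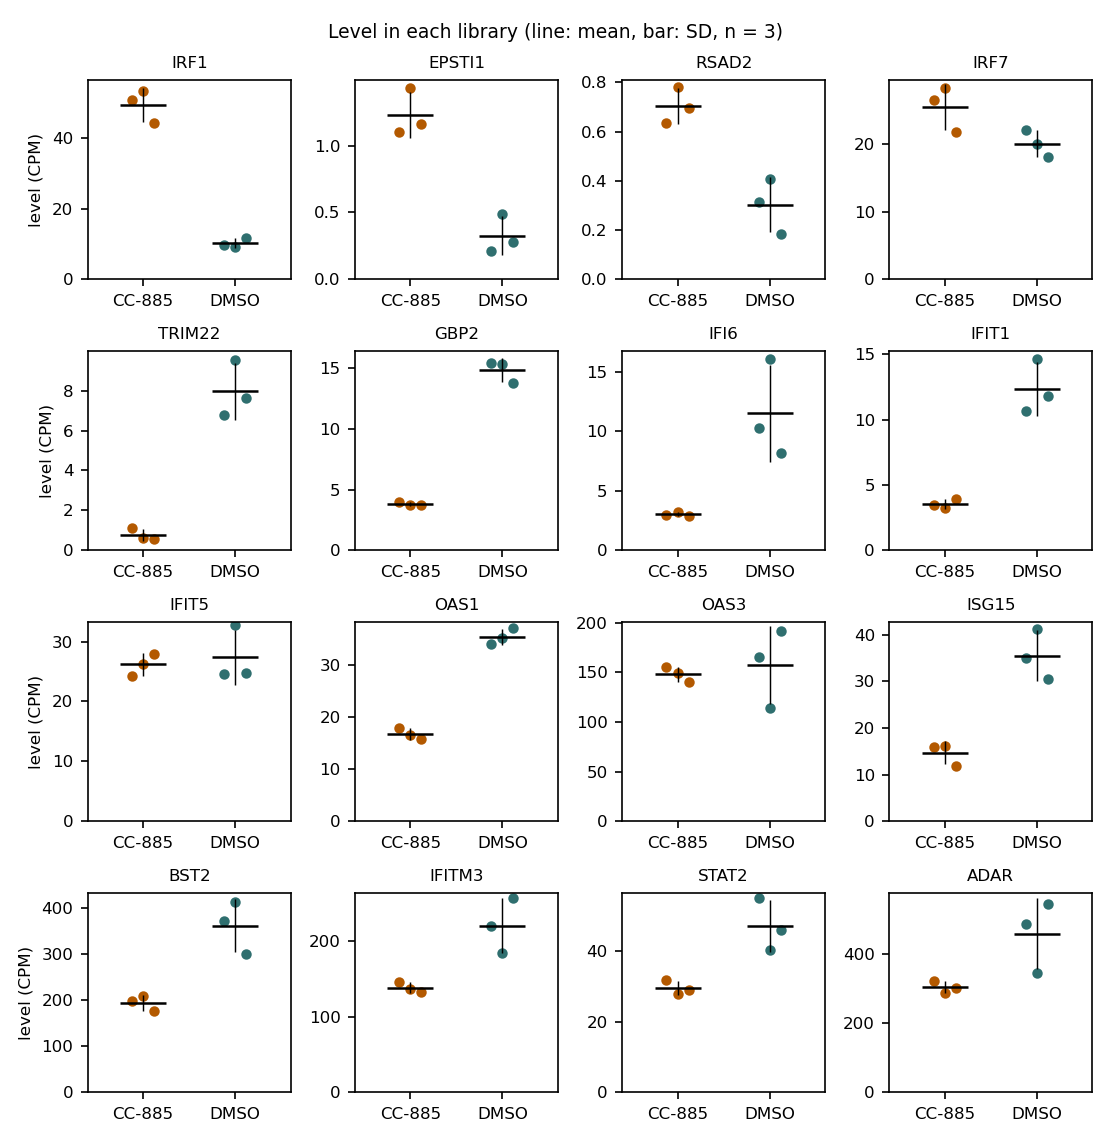
Level in CPM of 16 interferon-stimulated genes in each library, CC-885 left and DMSO right, with a line at the mean and a bar for the SD (n = 3 each) and every axis starting at 0. IRF1, EPSTI1 and RSAD2 are higher in every CC-885 library, TRIM22, GBP2, IFI6 and IFIT1 lower in each, and IFIT5 and OAS3 overlap.

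Per kilobase of the longest GENCODE 29 transcript, BST2 had the highest mean level of the 47 in both groups. Its level was 191 ± 16.7 CPM per kilobase with CC-885 and 355 ± 56.7 with DMSO (SD, n = 3 each). IFITM3 followed with 171 ± 8.85 CPM per kilobase with CC-885 and 272 ± 45.1 with DMSO. In DMSO replicate 3 alone IFITM3 was above BST2, at 317 against 294 CPM per kilobase. The first 4 places, BST2, IFITM3, IFITM2 and ADAR, were the same in both groups. IRF1 stood at place 9 with CC-885 (9.60 ± 0.927 CPM per kilobase) and at place 26 with DMSO (1.97 ± 0.279). ISG15 stood at place 7 with CC-885 (18.7 ± 3.12) and at place 5 with DMSO (45.2 ± 6.88), and TRIM22 at place 37 with CC-885 (0.257 ± 0.106) and at place 25 with DMSO (2.67 ± 0.475). With CC-885, IRF1 and its neighbour in the order STAT2 (9.03 ± 0.617) differed by less than the SD of IRF1.

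Genes of the pathway around these 47 were taken from 6 lists of ligands, receptors, kinases and STAT factors, negative regulators, nucleic acid sensing genes and further interferon-stimulated genes. Interferon transcripts were close to absent. None of the 21 ligand genes had enough counts to test, 11 had no count in any library and the highest count was 14, for IFNE with DMSO. IFNL1 had 12 counts in CC-885 replicate 3 and 0 in the other libraries. Of the 6 receptor genes 1 fell (16.7%, against 26.8% of all tested genes), and the other 5 were not called. The gene that fell was IL10RB, shared by the type III interferon and interleukin receptors, with 16.9, 19.9 and 22.1 CPM with CC-885, against 21.5, 36.8 and 28.9 CPM with DMSO. The groups overlapped (log2 fold change -0.57, adjusted p = 0.029), and the gene was not called when replicate 1 (adjusted p = 0.106) or 2 (adjusted p = 0.0668) of CC-885, or replicate 2 of DMSO (adjusted p = 0.12), was left out. IL10RB overlaps AP000295.1 on the same strand.

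Of 8 kinase and STAT genes, 2 rose and 2 fell, 25% each way, which is near the 25.8% and 26.8% of all tested genes. JAK1, the kinase shared by all interferon receptors, had 257, 256 and 292 CPM with CC-885, against 168, 169.7 and 186 CPM with DMSO (log2 fold change 0.62, adjusted p = 0.00205). Its exons overlap those of RAVER2 on the opposite strand. STAT6, which carries interleukin signals, had 113, 109.6 and 104 CPM with CC-885, against 179, 149.5 and 166 CPM with DMSO (-0.60, adjusted p = 0.00215), and overlaps NAB2 and LRP1 on the opposite strand. Neither gene's groups overlapped. STAT5A was higher (0.49, adjusted p = 0.016) and TYK2 lower (-0.33, adjusted p = 0.0394). STAT5A was not called when replicate 1 (adjusted p = 0.0519) or 2 (adjusted p = 0.0511) of CC-885 was left out. TYK2 was not called when replicate 1 (adjusted p = 0.056), 2 (adjusted p = 0.123) or 3 (adjusted p = 0.137) of CC-885 or replicate 1 of DMSO (adjusted p = 0.142) was left out, nor when low counts were kept (adjusted p = 0.0584).

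Negative regulators of the pathway moved in both directions, with 3 of 13 higher (23.1%) and 2 lower (15.4%), both shares below those of all tested genes, 25.8% higher and 26.8% lower. CISH, a STAT-induced inhibitor of cytokine receptors, had 0.533, 0.624 and 0.813 CPM with CC-885, against 2.84, 2.59 and 2.67 CPM with DMSO. No overlap was seen (log2 fold change -2.03, adjusted p = 9.63e-05), and CISH overlaps MAPKAPK3 on the opposite strand. PTPN6, a phosphatase of blood cell receptors, was also lower (-0.80, adjusted p = 0.00306). PIAS1, an inhibitor of STAT factors, had 38.8, 43.7 and 46.7 CPM with CC-885, against 21.6, 24.9 and 23.6 CPM with DMSO. Every CC-885 library was above every DMSO library (0.88, adjusted p = 0.000248), and PIAS1 overlaps AC107871.1 and CALML4 on the opposite strand. PTPN2, a phosphatase of JAK kinases (0.68, adjusted p = 0.00349), and SOCS3, an inhibitor of cytokine receptor kinases (0.58, adjusted p = 0.00758), were higher too. USP18, which removes ISG15 and blocks the type I receptor and is itself interferon-induced, had 4.26, 4.37 and 3.46 CPM with CC-885, against 3.55, 3.38 and 4.11 CPM with DMSO (0.13, adjusted p = 0.583).

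Of the genes that sense nucleic acids and induce interferon, 14 of 19 were tested, 4 rose and 4 fell (28.6% each way), near the 25.8% higher and 26.8% lower among all tested genes. CGAS, the sensor of cytosolic DNA, had 85.8, 94.2 and 83.2 CPM with CC-885, against 20.6, 22.2 and 21.4 CPM with DMSO. The groups lay far apart, with CC-885 higher by 4.10-fold (log2 fold change 2.04, adjusted p = 7.03e-07), and CGAS overlaps DDX43 on the opposite strand. TICAM1, the adaptor of TLR3, had 184, 188 and 183 CPM with CC-885, against 42.0, 30.4 and 49.3 CPM with DMSO, also with no overlap (2.19, adjusted p = 3.21e-06). The kinases TBK1 (0.51, adjusted p = 0.00769) and IKBKE (0.51, adjusted p = 0.0145), which activate interferon-inducing factors, were the other higher genes. IKBKE was not called when replicate 1 (adjusted p = 0.0619) or 2 (adjusted p = 0.053) of CC-885 was left out, and TBK1 overlaps AC135279.3 and IKBKE overlaps C1orf147 on the opposite strand.

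RNF135 and TRIM25, ubiquitin ligases that act on RIGI, were both lower. RNF135 had 6.19, 6.29 and 4.76 CPM with CC-885, against 13.3, 13.8 and 15.0 CPM with DMSO (log2 fold change -1.29, adjusted p = 8.04e-05). TRIM25 had 104, 81.1 and 100.3 CPM with CC-885, against 187, 153 and 202 CPM with DMSO (-0.92, adjusted p = 0.000443). Neither gene's groups overlapped, and TRIM25 shares exon positions with other genes on both strands. TLR3, the endosomal sensor of paired RNA (-2.15, adjusted p = 0.00101), and MAVS, the mitochondrial adaptor of RIGI and IFIH1 (-0.94, adjusted p = 0.00851), were lower as well. MAVS was not called when replicate 3 of DMSO was left out (adjusted p = 0.0608). Of the 5 sensing genes not tested, TLR7, ZBP1 and AIM2 had no count in any library.

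Further interferon-stimulated genes outside the 47 gave 6 lower (28.6%) and 3 higher (14.3%) of 21 tested, against 26.8% lower and 25.8% higher among all tested genes. Their median log2 fold change was -0.28, against -0.04 over all tested genes, and the share that fell was near that of all tested genes. SLFN5, a Schlafen protein, had 20.5, 17.0 and 23.7 CPM with CC-885, against 33.1, 35.3 and 37.6 CPM with DMSO (-0.79, adjusted p = 0.0011). LY6E, a surface protein that limits coronavirus entry, had 47, 53.2 and 38.1 CPM with CC-885, against 76.6, 71.6 and 81.6 CPM with DMSO (-0.73, adjusted p = 0.00136). UBA7, the enzyme that activates ISG15, fell as well (-1.58, adjusted p = 0.00492). TAP1, the peptide transporter of antigen presentation, had 206, 212 and 172 CPM with CC-885, against 135, 133 and 119 CPM with DMSO, and so rose (0.61, adjusted p = 0.00292). PNPT1, a mitochondrial RNA nuclease (0.50, adjusted p = 0.0109), and HELZ2, a helicase and transcriptional coactivator (0.42, adjusted p = 0.0215), were the other genes that rose. PNPT1 was not called when replicate 1 of DMSO was left out (adjusted p = 0.059), nor HELZ2 when replicate 1 (adjusted p = 0.0818) or 2 (adjusted p = 0.0746) of CC-885 was. LY6E overlaps LY6E-DT and TAP1 overlaps PSMB8-AS1 on the opposite strand, and UBA7 overlaps MIR5193 on the same strand. UBE2L6, the conjugating enzyme for ISG15, had no count in any library. In the lists around the 47, SOCS3, USP18, TBK1, IKBKE, TLR3, MAVS, UBA7, HELZ2, TRIM5, IFNE, IFNL1 and the genes at 0 were named after their values were seen.

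**Figure D5:**
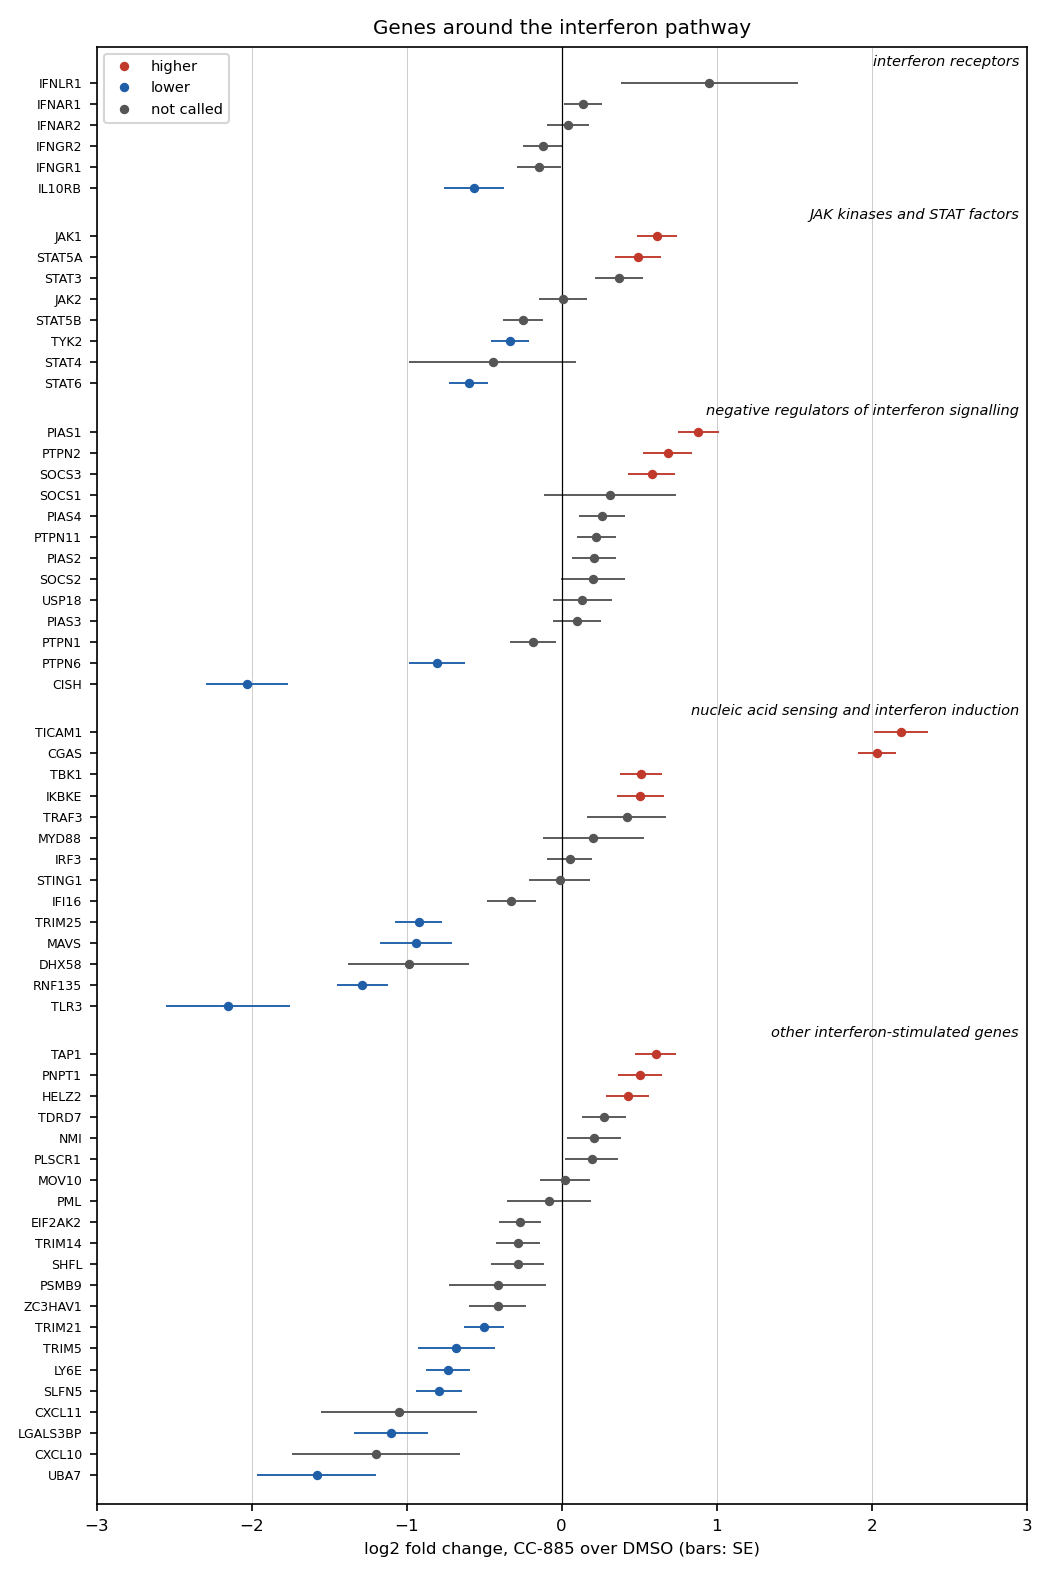
Log2 fold change of CC-885 over DMSO for tested genes around the interferon pathway that are reported here, 1 row per gene within its list, with bars giving the SE. Receptors lie near 0 apart from IL10RB and the scarce IFNLR1, while TICAM1 and CGAS stand at 2.19 and 2.04 and CISH and TLR3 at -2.03 and -2.15.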

How the data were processed

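Gene expression was measured by RNA-seq in 6 HCCLM3 libraries, 3 treated with CC-885 and 3 with DMSO (24 h listed for each), grouped by GEO's labels. The authors deposited raw counts of reads per gene, 1 column per library, per the file headers, and its values are whole numbers with unequal totals. How reads were aligned and counted, and with which strand setting and annotation, is not stated by the sources used here. Mouse builds (GRCm38, mm10) are named in the submitters' processing notes, but the identifiers are human Ensembl genes. Printed coordinates therefore come only from RefSeq's promoter table (GRCh38.p14). Exon overlaps and transcript lengths were taken from GENCODE 29, which may differ from the annotation used for counting. Identifiers were paired with symbols by a gene names table (20148 rows) or GENCODE 29 (76), and 39 had no name. Of counts from 1 to 20, 66.8% were even, so a fragment may have been counted by its reads.

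Genes were filtered with filterByExpr (minimum count 10) and scaled by TMM, and CC-885 was compared with DMSO by the quasi-likelihood F test of edgeR 4.0.16 (R 4.3.3), with robust dispersions and no covariate. P-values were adjusted over 13444 genes after Benjamini and Hochberg, with calls below 0.05. Unless another tool is named, adjusted p-values are from this test. Each SE is the size of the log2 fold change divided by the square root of its F statistic. Group means are given ± SD of 3 libraries. The fit was tested on simulated counts. False calls stayed under the nominal rate (4.45% of calls) when the spread followed the trend over genes. They exceeded it (12.5%) when each gene kept its own estimated spread, so calls near the threshold are less certain. Far fewer genes were changed in the simulation than were called in the data, so these rates do not carry over directly.

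The 47 genes, their roles and the pathway and marker lists were chosen with earlier results of these data known. All 47 are named. Values per library are given for up to 3 called genes of each role with the smallest p, called genes against their role's majority and the 2 most abundant per kilobase, and for up to 2 higher and 2 lower genes of each pathway list. For some others they were added with the values known.

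The alternatives were DESeq2 1.42.0 size factors and its Wald test, limma-voom (limma 3.58.1), scaling by library size only, no low-count filter, a stricter filter (5 CPM or more in 3 or more libraries), a correction for GC content and transcript length, a block for the replicate number, and leaving out 1 library at a time. Halving the counts was an alternative chosen after seeing the data. Some genes are not reported here and were left out of the pathway lists after the lists were counted.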

Additional observations from a re-analysis of the deposited data

How the results depend on the processing

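The count of interferon-stimulated genes that fell was 18 to 23 under the 15 alternatives run, against 22, and 17 of the 22 kept their call under every alternative that tested them, as did 2 of the 3 that rose (IRF1 and EPSTI1). With each library left out in turn, 18 to 22 fell and 2 to 3 rose, and the median log2 fold change was -0.65 to -0.56. With a stricter filter (5 CPM or more in 3 or more libraries) only 27 of the 47 were tested, 1 rose and the median was -0.75. The median over all genes moved by under 0.1 on the log2 scale with every scaling. Sizes of kept falls moved both ways. After correcting for GC content and length, ISG15 was at -0.83 in place of -1.28 and IFITM2 at -0.61 in place of -0.92. IFIT1 was at -2.00 in place of -1.81 and PARP9 at -0.98 in place of -0.77. Over all alternatives BST2 ran from -1.02 to -0.56 and IFI35 from -0.65 to -0.27. The 5 falls that lost their call under an alternative (IFIT2, IFITM3, ADAR, DDX60, SAMD9) and the lost call of RSAD2 are given beside their values above. Of the uncalled genes, IRF2 passed with the stricter filter (-0.53, adjusted p = 0.0441), IRF7 (0.68, adjusted p = 0.000964), IFIT5 (-0.26, adjusted p = 0.04) and DDX60L (-0.43, adjusted p = 0.0415) after correcting for GC content and length, and GBP1 without DMSO replicate 3 (1.04).

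Values near 0 changed sign for DTX3L (-0.063 with that correction) and SP100 (-0.0080 with library size only, -0.013 with the stricter filter and -0.11 with the correction). With a library left out, IRF9 ran from -0.37 to 0.80, IFIT5 from -0.13 to 0.10, OAS3 from -0.26 to 0.082 and SP100 from -0.029 to 0.11. Of the lists around them, receptors had 0 to 1 lower with a library left out. Among kinases and STAT factors 1 was lower when low counts were kept, and with a library left out 1 to 3 were lower and 1 to 3 higher. Among negative regulators 1 was lower with the stricter filter, and with a library left out 2 to 3 were lower and 3 to 4 higher. Among sensing genes 3 to 4 were lower and 3 to 6 higher with a library left out, and among the further interferon-stimulated genes 5 to 7 were lower and 2 to 3 higher. After correcting for GC content and length, 9 of these further genes were lower and 3 higher. The cause was not tested.

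With the replicate number as a block, 23 of the 43 fell and 4 rose, with a median of -0.66. IRF2 (-0.47, adjusted p = 0.0245) and IRF7 (0.35, adjusted p = 0.0458) then passed. Same-numbered libraries correlated at 0.0958, 0.0312 and 0.0722 in their deviations from the group means. Replicates 1 and 3 correlated best with their own number and replicate 2 did not. With 3 libraries in each group, these values cannot tell whether same-numbered libraries shared a culture or a day. About 3 counts per library are the limit of detection, and the few counts of IFI27, MX1, OAS2, RSAD2 and HERC6 leave wide relative errors. MX2, CMPK2 and XAF1 were untested because of the filter on low counts (minimum 10).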
